A study of Caenorhabditis elegans with 6 samples.

Results

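The genes described here are the 2 copies of *clec-209*, with the gene IDs Y19D10A.9 and F56A4.2, and *clec-204* (Y46H3B.2), 3 of the 21507 genes listed. They were picked by ID and by symbol after their levels in this comparison were known. Their difference between the genotypes is therefore given as a description, with no test. Whole bodies of *Caenorhabditis elegans* L4 hermaphrodites, the last larval stage, gave 6 RNA-seq libraries: 3 of the untreated wild type, strain N2, and 3 of an untreated glna knockout. The glna genes encode glutaminases, which split glutamine into glutamate and ammonia. The labels give no allele and do not name the disrupted glna gene or genes, nor do they say how many worms made up a sample or whether replicates were separate cultures. Any p-value below thus rests on how far these samples differ among themselves, and that spread may be technical.

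C-type lectins carry a domain that in many animal proteins binds sugars in a calcium-dependent way. *C. elegans* has a very large family of genes with such domains, many of which encode proteins with a signal for secretion. Several members are known from the intestine and from the response to bacterial infection, but the family also includes genes with no known role. Both *clec-209* copies and *clec-204* are assigned the Lectin_C domain in the deposited table.

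Both *clec-209* copies lie on chromosome V of WBcel235, on the plus strand. Y19D10A.9 spans 2351676 to 2352932 and F56A4.2 spans 2459637 to 2460893. The gene models are the same length to the base: each covers 1257 bases, with 4 exons of 86, 116, 237 and 452 bases and introns of 67, 253 and 46 bases. Each encodes 296 residues, and neither model has an annotated untranslated region. No other gene in the annotation has this series of exon and intron lengths, which 2 genes carry. *clec-204* lies on the same chromosome and strand, at 1757186 to 1760306 in the deposited table, 591 kb before the first copy. It has 11 exons and encodes 551 residues, and the annotation holds 1 gene of that symbol.

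The *clec-209* genes sit inside a longer repeat. From *irld-35* onward, 22 pairs of genes, each pair sharing a transcript model with the same exon and intron lengths, follow each other in the same order, one set between 2348215 and 2452460 and the other between 2456176 and 2560739. The shift between matched models is 107961 bases for the first 7 pairs, *clec-209* among them, and 108279 bases at most. Of the 22 pairs, 20 share a symbol, and the rest have no symbol for either partner. Both partners have a row in the deposited table for 5 pairs, the second partner alone for 10, the first alone for 0, and neither for 7. The sequences themselves were not compared here, and how reads that fit both copies were treated is not given in the sources used here. The level of each copy is therefore uncertain, and the sum of both is given beside it.

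Libraries held between 18443661 and 19861540 recovered reads. Knockout replicate 1 had 3.58% of its reads in ribosomal RNA genes, against 0.331% to 0.763% in the other libraries. *glna-2* ranged from 408 to 519 normalized counts in wild type and from 37.4 to 69.5 in the knockout; *glna-3* ranged from 636 to 761 and from 83.1 to 175. *glna-1* ranged from 255 to 270 and from 128 to 187. All 38 markers of intestine, muscle, pharynx, neurons, epidermis and germ cells were above 10 normalized counts in every library.

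Y19D10A.9 was low in wild type, with 3 to 60 reads per library, and abundant in the knockout. It stood at 59.8, 31.5 and 2.81 normalized counts in wild type replicates 1, 2 and 3, which are 60, 32 and 3 reads. In knockout replicates 1, 2 and 3 it stood at 755, 1253 and 1224 normalized counts, or 645, 1310 and 1269 reads. The groups were far apart, the lowest knockout value being 12.6 times the highest wild-type value. Within wild type, however, the libraries ranged widely, and replicate 3 was close to zero.

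The wild-type mean of Y19D10A.9 was 31.4 ± 28.5 normalized counts and its knockout mean 1077 ± 280 (SD, n = 3 each), a 34.3-fold difference. The log2 fold change, on the log2(normalized count + 1) scale, was 5.74 (SE 0.87), the highest of the 15169 genes tested. The authors' deposited table gives 5.10, a value closer to the ratio of the means; the mean of log values gives more weight to the very low wild type replicate 3. The fold difference became 62.7 when wild type replicate 1 was left out and 23.6 when replicate 3 was. Its size thus rests on a wild-type level made of few reads.

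F56A4.2, the second copy, was present in both genotypes. Its wild-type values were 136, 201 and 159 normalized counts in replicates 1, 2 and 3. Its knockout values were 487, 1115 and 915. Again no knockout library fell within the wild-type range, and the wild-type libraries lay closer together than for the first copy. The means were 165 ± 33.2 and 839 ± 321 (SD, n = 3 each), a 5.08-fold difference and a log2 fold change of 2.27 (SE 0.30).

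Summed over both copies, *clec-209* stood at 195, 233 and 162 normalized counts in wild type replicates 1, 2 and 3. In the knockout the sums were 1241, 2368 and 2140. The lowest knockout sum was 5.34 times the highest wild-type sum. A read moved from one copy to the other leaves this sum as it is. A read left out because it fits both copies, or counted at both, would change it. The means of the sum were 197 ± 35.3 and 1916 ± 596 (SD, n = 3 each), 9.74-fold apart, with a log2 fold change of 3.24 (SE 0.25). Leaving out any one library gave between 8.60-fold and 11.5-fold. Y19D10A.9 made up 60.8% of the difference between the means of the sum and F56A4.2 39.2%. Knockout replicate 1 had the lowest knockout value of both copies and of the sum. In these bulk samples, more cells with the transcript and more transcript per cell cannot be told apart.

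*clec-204* differed less and varied less. It was at 110, 109 and 120 normalized counts in wild type replicates 1, 2 and 3, and at 253, 231 and 206 in the knockout. The groups did not overlap, and here knockout replicate 1 was the highest library in normalized counts rather than the lowest knockout one. In recovered reads it was not the highest, with 216, 242 and 214 in knockout replicates 1, 2 and 3. A read counts for 1.17 normalized counts in knockout replicate 1 and for 0.956 and 0.965 in replicates 2 and 3. The means were 113 ± 5.99 and 230 ± 23.2 (SD, n = 3 each), 2.04-fold apart, with a log2 fold change of 1.02 (SE 0.15). All 3 genes had every knockout library above every wild-type library, as had 15.3% of the tested genes.

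Per kilobase of gene length, the order of the levels changed between the genotypes. In wild type F56A4.2 was the highest, at 186 ± 37.3 normalized counts per kilobase, followed by *clec-204* at 64.6 ± 3.42 and Y19D10A.9 at 35.2 ± 32.0. The range of Y19D10A.9 in wild type, 3.15 to 67.1, reached that of *clec-204*, 62.6 to 68.5, so these neighbours in the order were not separated by their spread. In the knockout the order was Y19D10A.9 at 1209 ± 314, F56A4.2 at 942 ± 360 and *clec-204* at 132 ± 13.2 (SD, n = 3 each). There the ranges of the copies overlapped across libraries, but within each knockout library Y19D10A.9 was above F56A4.2. *clec-204* lay below both in every knockout library.

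**Figure D1:**
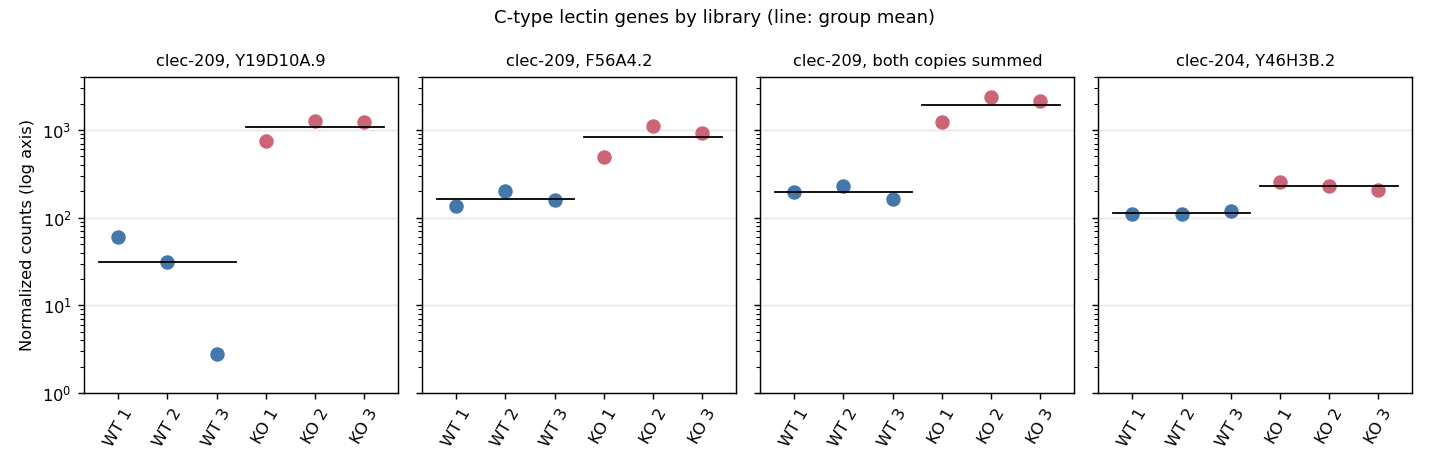
Normalized counts (log axis) of each clec-209 copy, of their sum and of clec-204 in the 3 wild-type (WT, blue) and 3 knockout (KO, red) libraries, with a line at each group mean. Y19D10A.9 spans 2.81 to 59.8 in wild type and 755 to 1253 in the knockout, while clec-204 spans 109 to 120 and 206 to 253.

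The division of *clec-209* reads between the copies differed between the libraries. Y19D10A.9 held 60 of 196 *clec-209* reads in wild type replicate 1, or 30.6% (95% Clopper-Pearson interval 24.2% to 37.6%). It held 32 of 236 in replicate 2, or 13.6% (9.46% to 18.6%), and 3 of 173 in replicate 3, or 1.73% (0.359% to 4.98%). In the knockout the first copy held most of the reads. The shares were 60.8% of 1061 reads in replicate 1 (57.8% to 63.7%), 52.9% of 2476 in replicate 2 (50.9% to 54.9%) and 57.2% of 2218 in replicate 3 (55.1% to 59.3%). The intervals cover counting error only. The mean share was 15.3 ± 14.5% in wild type and 57.0 ± 3.95% in the knockout (SD, n = 3 each), with no overlap, and the shares were close together in the knockout alone. This share comes from the same values by which the genes were picked and was not tested.

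The other repeated pairs with a row for each partner divided their reads differently. *mct-2*, of the monocarboxylate transporter family, had 4.14%, 9.20% and 13.5% of its reads in the first copy, Y19D10A.12, in wild type replicates 1, 2 and 3. In the knockout the share was 9.59% in replicate 1, 8.65% in replicate 2 and 47.5% in replicate 3. The first 2 knockout libraries thus lay inside the wild-type range and replicate 3 far above it, unlike *clec-209*, whose 3 knockout libraries were all above 50%.

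The C01B4.6 pair had 0% to 3.70% of 20 to 97 reads per library in its first copy, Y19D10A.16. The C13B7.6 pair had none of its 23 to 337 reads in the first copy in the 3 wild-type libraries and knockout replicate 1, and 10.9% and 8.33% of 46 and 36 reads in knockout replicates 2 and 3. *nas-2*, an astacin metalloprotease gene, had 2 reads in each copy in knockout replicate 2 and 0 in every other library. For the pairs other than *clec-209*, then, the second copy held most of the reads in every library with more than 4 of them.

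**Figure D2:**
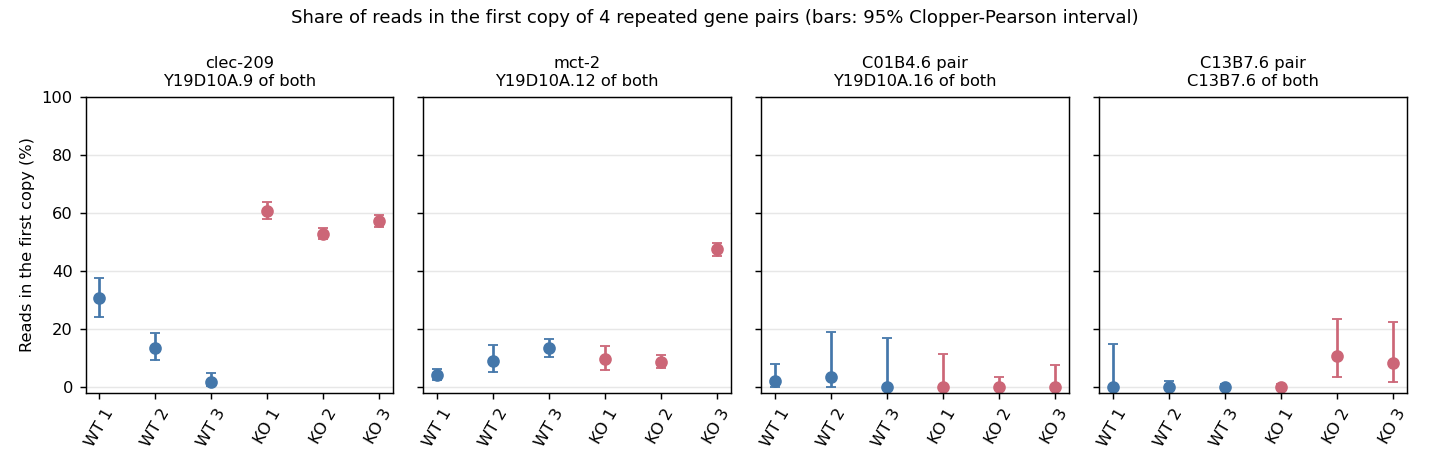
Percentage of the reads of a repeated gene pair that were counted at the first copy, in each wild-type (WT, blue) and knockout (KO, red) library, with 95% Clopper-Pearson intervals for counting error. For clec-209 the share is 1.73% to 30.6% in wild type and 52.9% to 60.8% in the knockout, whereas for mct-2 it exceeds 13.5% only in knockout replicate 3, at 47.5%.

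Genes around the members were compared next. Within 50 kb of a member, 52 other genes are listed and 25 had a mean of at least 10 normalized counts and were tested. With limma and Benjamini-Hochberg adjustment over all genes, 0 of the 25 passed an adjusted p of 0.05, a threshold that 0.356% of all tested genes passed. The smallest adjusted p among them was 0.0747. At an unadjusted p under 0.05 there were 8 of 25 (4 higher and 4 lower), or 32.0%, against 22.6% of all tested genes. edgeR on recovered reads called 0 of them (0.0593% of all), DESeq2 on recovered reads 3 higher and 3 lower (8.29% of all), and the same numbers stand in the authors' deposited table (5.75% of all listed genes, 2.83% higher and 2.92% lower). The median log2 fold change was 0.12, against 0.01 over all genes tested.

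The genes beside the second copy were among the higher ones. *irld-35* (F56A4.9), of a family with insulin-receptor-like ligand-binding domains, lies 1.35 kb before F56A4.2 on the opposite strand. It stood at 43.8, 86.8 and 59.9 normalized counts in wild type replicates 1, 2 and 3 and at 94.8, 261 and 290 in the knockout. The groups did not overlap, but knockout replicate 1 was only just above the highest wild-type library. Its log2 fold change was 1.64 (SE 0.43, limma adjusted p = 0.0964), while the authors' deposited table gives 1.76 with an adjusted p of 0.00127.

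F56A4.3, which carries a glutathione S-transferase domain in the deposited table, ends 3.49 kb before the second copy. Its wild-type values were 339, 446 and 310 normalized counts and its knockout values 598, 710 and 455, so the groups just failed to overlap. Its log2 fold change was 0.68 (SE 0.20, limma adjusted p = 0.121), and 0.69 in the authors' deposited table, with an adjusted p of 0.0397. On the other side, F56A4.10 lies 0.427 kb after the copy on the opposite strand. It averaged under 10 normalized counts, with 0.937 to 25.1 across the 6 libraries. The 6 tested genes around the second copy all had log2 fold changes above 0, as had 7770 of all 15169 tested genes. Their median was 1.16, against 0.01 over all genes tested. In 2 of the 6, *irld-35* and F56A4.3, the groups did not overlap, or 33.3% against 30.5% of all tested genes.

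Farther along, *mct-2* and C01B4.7, which carry the same transporter domain in the deposited table, were highest in knockout replicate 3. C01B4.7 stood at 15.9 to 72.7 normalized counts in wild type, at 30.4 and 55.5 in knockout replicates 1 and 2 and at 542 in replicate 3. Y19D10A.12, the first *mct-2* copy, stood at 14.8 to 62.8 in wild type, at 24.6 and 49.7 in knockout replicates 1 and 2 and at 931 in replicate 3. The second *mct-2* copy, C01B4.9, was at 146 to 530 in wild type and at 232, 525 and 1028 in knockout replicates 1, 2 and 3. This pattern is not that of *clec-209*, which was high in all 3 knockout libraries. The limma adjusted p was 0.346, 0.371 and 0.525 for these genes.

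Around the first copy, the listed nearby genes did not share its pattern. The partners there of *irld-35*, F56A4.10, F56A4.12, C01B4.8 and C01B4.7 are not listed, so their levels could not be compared. The nearest listed genes, F15E11.10 before the first copy and *nas-2* (Y19D10A.6) after it, were at 0 to 2.87 normalized counts in every library. The 6 *pud* genes, named for proteins more abundant in *daf-2* insulin receptor mutants, lie 20.7 to 29.1 kb before it and had negative log2 fold changes, from -1.03 to -1.80. *pud-3*, the most abundant, stood at 930, 5390 and 5709 normalized counts in wild type replicates 1, 2 and 3 and at 301, 2069 and 1514 in the knockout. Replicate 1 was the lowest library of each genotype and the groups overlapped, as they did for all 6. None passed limma (adjusted p = 0.217 to 0.466). Some *pud* genes share a symbol with a near neighbour, and reads may be divided between them too.

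Around *clec-204*, the next gene on the same strand is another C-type lectin gene. *clec-205* begins 0.587 kb after it and stood at 84.7, 74.9 and 58.1 normalized counts in wild type replicates 1, 2 and 3, and at 102 to 137 in the knockout. The groups did not overlap. The log2 fold change was 0.72 (SE 0.21, limma adjusted p = 0.119), and the authors' deposited adjusted p was 0.0740. On the other side, ZK697.14 was at 0.937 to 9.86 normalized counts.

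Of the 11 tested genes around *clec-204*, the members of the window differed in both directions. F36H9.4, with a trypsin-inhibitor-like domain in the deposited table, was at 84.8 to 128 normalized counts in wild type and 165 to 250 in the knockout (log2 fold change 1.07, SE 0.23, limma adjusted p = 0.0747). F36H9.5 was at 234 to 292 and 95.9 to 174 (log2 fold change -0.95, SE 0.23, limma adjusted p = 0.0818). The small heat shock protein gene *hsp-16.41* was at 21.9 to 53.4 and 4.68 to 7.72 (log2 fold change -2.04, SE 0.45, limma adjusted p = 0.0762). F36H9.2 was at 82.4 to 150 and 15.2 to 64.1 normalized counts (log2 fold change -1.58, SE 0.49, limma adjusted p = 0.126). All 4 passed in the authors' deposited table, with adjusted p of 0.00307, 0.00906, 0.00649 and 0.0295. They were the only ones called there of the 21 genes listed in this window, against 5.75% of all listed genes. DESeq2 called 1 higher and 3 lower, or 36.4% of the 11 against 8.29% of all tested genes, while limma and edgeR called 0. Groups did not overlap in 45.5% of the 11, 2 higher and 3 lower, against 30.5% of all tested genes. *dhs-13*, a short-chain dehydrogenase gene and the most abundant gene of the window, was at 1317 to 1498 and 1350 to 1659, with groups that overlapped. The median log2 fold change of the 11 was 0.04.

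**Figure D3:**
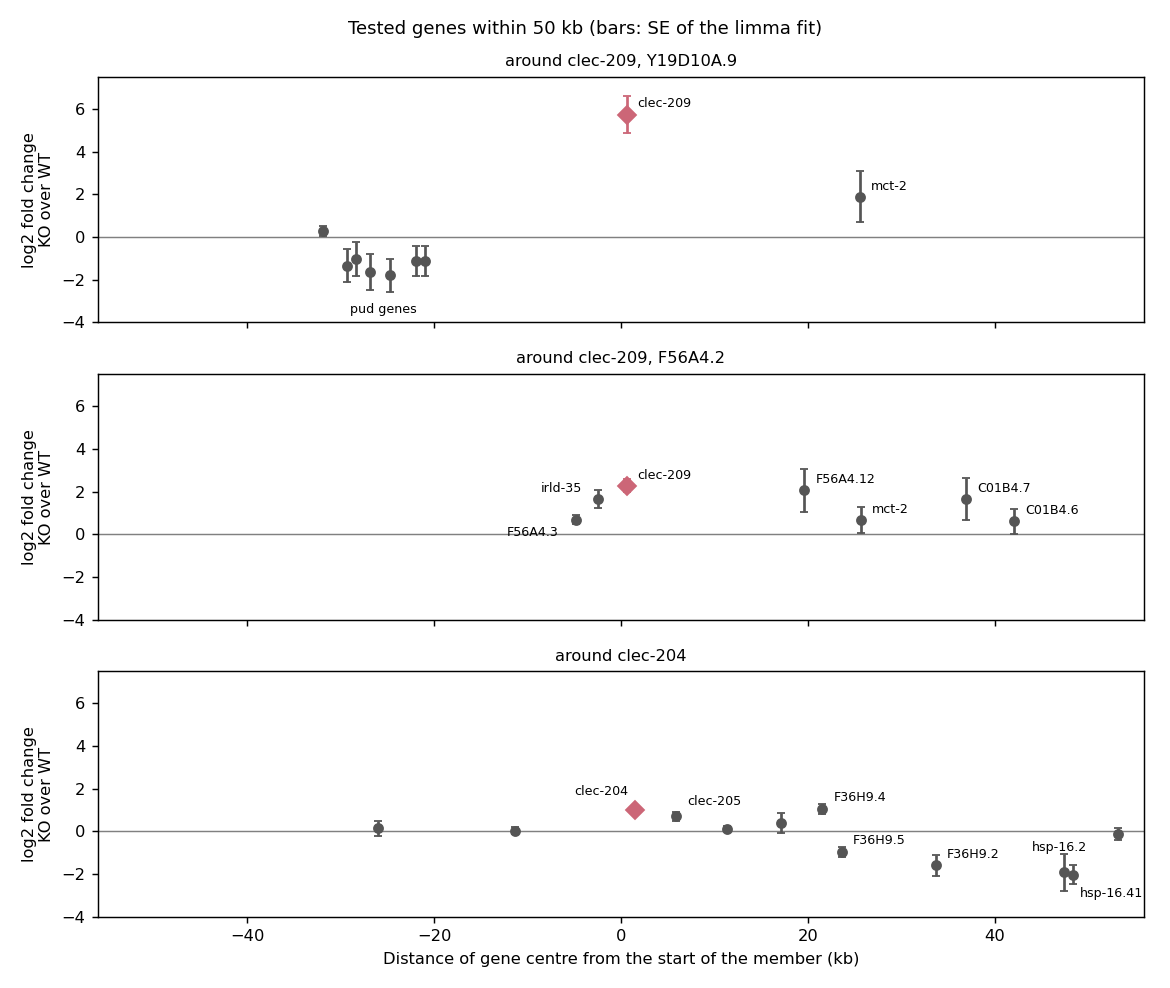
log2 fold change of knockout (KO) over wild type (WT), with the standard error of the limma fit, for the tested genes within 50 kb of each member, by the distance of the gene's centre from the member's start in kb. The members are red diamonds, and no grey neighbour passed the limma threshold.

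Other genes of the C-type lectin family lay on both sides of 0. Of 212 other genes whose symbol is clec and a number, 113 were tested and 0 passed limma over all genes, against 0.356% of all tested genes. At an unadjusted p under 0.05, 20 were higher and 16 lower, or 31.9% against 22.6% of all tested genes. edgeR called 0. DESeq2 called 11 higher and 4 lower, or 13.3% of those tested against 8.29%. The authors' deposited table has the same numbers, 7.08% of the 212 listed against 5.75% of all listed genes. Their median log2 fold change was 0.02, with quartiles of -0.34 and 0.42, against 0.01, -0.26 and 0.25 over all genes tested. Of the 113, 37 had groups that did not overlap, 19 higher and 18 lower, or 32.7% against 30.5% of all tested genes. The 39 tested members on chromosome V had a median of 0.06, and the authors' deposited table calls 3 higher and 0 lower, or 3.90% of the 77 listed. DESeq2 called the same numbers, 7.69% of those tested, and edgeR and limma 0. At an unadjusted p under 0.05 there were 15, or 38.5%. Groups did not overlap in 48.7% of the 39, 10 higher and 9 lower, against 30.5% of all tested genes.

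The most abundant family members differed little between the genotypes. *clec-63* had a wild-type mean of 21102 ± 2109 normalized counts and a knockout mean of 19990 ± 2294, and *clec-50* 6872 ± 1117 and 6017 ± 1405 (limma adjusted p = 0.761 and 0.554). *clec-41*, *clec-150* and *clec-83*, which follow in abundance, had log2 fold changes of 0.35, -0.13 and 0.13 (limma adjusted p = 0.222, 0.653 and 0.486; SD, n = 3 each).

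The largest differences among other family members with a mean of at least 50 went in both directions. *clec-7* stood at 143, 105 and 116 normalized counts in wild type replicates 1, 2 and 3 and at 411, 193 and 508 in the knockout (log2 fold change 1.50, SE 0.33, limma adjusted p = 0.0762). *clec-86* stood at 261, 1012 and 241 in wild type and at 99.5, 121 and 137 in the knockout (log2 fold change -1.75, SE 0.49, limma adjusted p = 0.108). Its high wild-type mean comes from replicate 2. *clec-223*, *clec-146* and *clec-87* had log2 fold changes of 1.27, 1.08 and 1.05 (limma adjusted p = 0.163, 0.129 and 0.129). In all 3 the highest knockout library was replicate 1. Among the 113, the smallest limma adjusted p was 0.0588, for *clec-52*, which was at 258 to 283 normalized counts in wild type and 150 to 171 in the knockout; it was named after its value was seen.

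**Figure D4:**
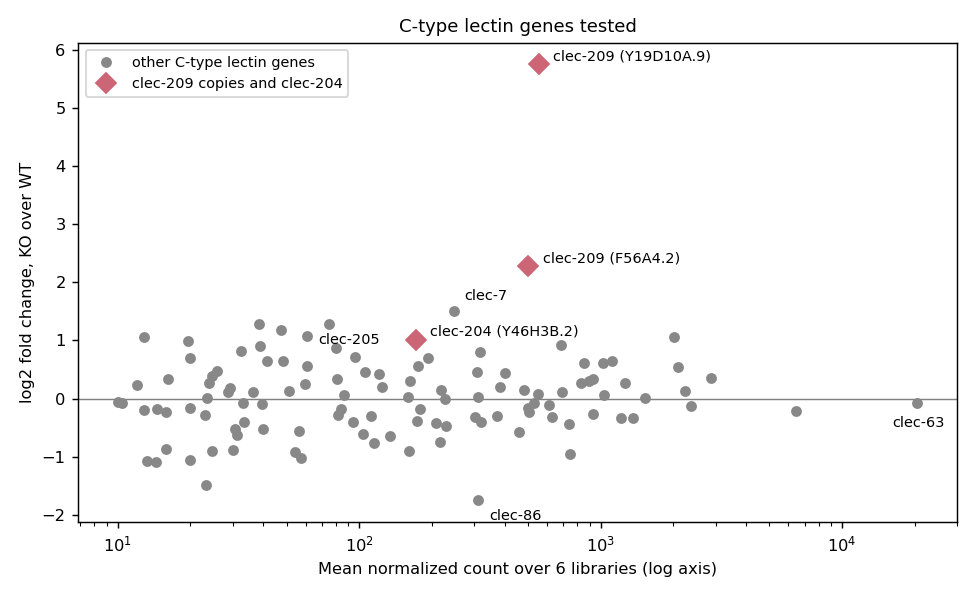
log2 fold change of knockout (KO) over wild type (WT) against the mean normalized count over 6 libraries (log axis) for the tested C-type lectin genes. The clec-209 copies, at 5.74 and 2.27, lie above every other gene of the family, of which clec-7 is the highest at 1.50, while clec-204, at 1.02, lies within the family's range.

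Genes of the response to intestinal infection, from which several C-type lectins are known, were read beside the members. Of 17 effectors, 16 were tested, 0 passed limma, and 3 had an unadjusted p under 0.05 (1 higher, 2 lower), or 18.8% against 22.6% of all tested genes. edgeR called 0. DESeq2 called 1 higher and 2 lower, 18.8% against 8.29%, as did the authors' deposited table, 17.6% of the 17 listed against 5.75%. Their median log2 fold change was -0.41. The lysozyme gene *lys-7* was at 845 to 1271 normalized counts in wild type and 1474 to 2778 in the knockout (log2 fold change 0.87, limma adjusted p = 0.109). *clec-85*, a C-type lectin gene, was at 657 to 1625 and 394 to 578 with no overlap (log2 fold change -0.96, limma adjusted p = 0.143). *dod-22* was at 126 to 617 and 91.3 to 128, with groups that overlapped (log2 fold change -1.12, limma adjusted p = 0.230). These are the 3 that the authors' deposited table calls, with adjusted p of 0.0135, 0.0216 and 0.0357. *clec-60* and *clec-67*, C-type lectin genes known from bacterial infection, were at 41.9 to 197 and 406 to 784 in wild type and at 42.1 to 150 and 252 to 429 in the knockout, with overlapping groups. The highest wild-type value of *clec-85*, *dod-22*, *clec-60* and *clec-67* was that of replicate 2, where *lys-7* was lowest. In wild type replicates 1 and 3, *clec-85* stood at 760 and 657 and *dod-22* at 194 and 126.

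Of the 8 regulators, all of them tested, 0 passed limma, 1 had an unadjusted p under 0.05 (12.5% against 22.6% of all tested genes), and edgeR, DESeq2 and the authors' deposited table have 0. Groups did not overlap in 4 of the 8, 3 higher and 1 lower, against 30.5% of all tested genes. *pmk-1*, the p38 MAP kinase of the pathway, ranged from 355 to 414 normalized counts in wild type and from 376 to 473 in the knockout, and the intestinal transcription factor gene *elt-2* at 487 to 572 and 427 to 468. *elt-2*, lower in the knockout with groups that did not overlap, is among the 6 intestine markers. The summed level of these 6 was 132103 to 148098 in wild type and 129169 to 153407 in the knockout, with groups that overlapped. A sum is weighted toward its most abundant genes. Oocyte markers summed to 3482 to 6558 and 7253 to 19750, and the 5 general epidermis markers to 15605 to 25466 and 6112 to 13011. The groups were also apart for pharynx markers (17863 to 19110 and 22936 to 40463), neuron markers (3726 to 3880 and 3929 to 4260) and larval L4 epidermis markers (29292 to 41440 and 10912 to 23659). Body wall muscle, sperm and adult epidermis markers overlapped, although muscle markers reached 367697 in knockout replicate 1. No marker of these lists was at 0 in any library, and their part in the members' difference was not tested.

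Among 12359 genes with a mean of at least 50, those most like the summed *clec-209* copies over the 6 libraries, by Pearson's r of log2 values, were *dod-18* (0.990), F55B11.7 (0.986), the galectin gene *lec-8* (0.986), the uridine phosphorylase gene *upp-1* (0.984) and the small heat shock protein gene *hsp-25* (0.984). None lies on chromosome V, and their log2 fold changes were smaller, from 0.22 to 0.59. In wild type *dod-18* stood at 80.7, 84.8 and 85.2 normalized counts, and at 121, 131 and 128 in the knockout. At r of 0.95 or above there were 35 genes for the sum and 137 for *clec-204*.

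The genes most like *clec-204* were Y7A9C.1 (0.996), ZK1240.2 (0.995), the proton pump subunit gene *vha-9* (0.992), C09E7.9 (0.991) and *marg-1* (0.989). *marg-1* stood at 317, 300 and 381 normalized counts in wild type replicates 1, 2 and 3 and at 885, 764 and 794 in the knockout, a log2 fold change of 1.29. The 5 genes named for the sum and the 5 named for *clec-204* have none in common. The r between *clec-204* and the summed copies was 0.936, and between the copies it was 0.884. All points share the 2 genotypes, so each r is set largely by the difference between the groups.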

How the data were processed

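Per the labels' protocols, TRIzol was used for RNA and an NEBNext Ultra kit for the libraries. The submitters' processing notes name build WBcel235, DESeq2 1.20.0, featureCounts 1.5.0-p3, HISAT2 2.0.5, StringTie 1.3.3b and CASAVA 1.8, without roles. The deposited signal columns hold normalized counts made by the authors; in each library they are whole multiples of one value, so that 100% of them return whole reads (tolerance 0.01 read). The deposited log2 fold changes, p-values and adjusted p-values are the authors' own comparison, per the file headers. Symbols, matched for 21059 IDs, and exon models are from Ensembl 115.

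Genes averaging at least 10 normalized counts over 6 libraries (15169) entered a limma 3.58.1 fit with a trend (R 4.3.3) of log2(normalized count + 1), and p-values were adjusted by Benjamini-Hochberg over all of them. The pseudocount draws fold changes of low genes toward 0, while a difference of mean log values can exceed the log2 ratio of means where replicates spread widely. SE is that of the limma fit. On recovered reads, edgeR 4.0.16 called 9 genes and DESeq2 1.42.0 called 1258. Intervals of shares are exact (Clopper-Pearson, scipy 1.17.1).

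The members, lists and tests were chosen with earlier results of these data known. Named genes were the members; neighbours within 50 kb that were called, had groups that did not overlap and a mean of at least 50, or were nearest; family members that were most abundant or had the largest log2 fold changes; and the 5 genes most like the summed copies and the 5 most like *clec-204*. Other named genes were chosen after their values were seen.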

Additional observations from a re-analysis of the deposited data

How the results depend on the processing

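The log2 fold changes of the members kept their direction under every setting run (quantile normalization, edgeR, DESeq2, pseudocounts of 0.5 and 5, a replicate block, leaving out each library and, for each copy and *clec-204*, the authors' deposited values). Leaving out a library gave 3.06 to 3.53 for the summed copies, 4.56 to 6.56 for Y19D10A.9, 2.03 to 2.62 for F56A4.2 and 0.95 to 1.09 for *clec-204*. Counts of calls depended on the tool. Over all genes they were 54 in limma, 9 with edgeR, 1258 with DESeq2, 1236 in the authors' deposited table, 164 with no filter, 19 with a mean of at least 50 and 19 with a pseudocount of 0.5. Quantile normalization gave 75 and a pseudocount of 5 gave 55, both nearer to the main count. Leaving out a library gave 0 to 247. The count was 0 when wild type replicate 1 or 2 was left out and also for knockout replicate 3, 1 when it was wild type replicate 3, 36 when it was knockout replicate 1 and 247 when it was knockout replicate 2. For other C-type lectin genes the count of 0 became 15 with DESeq2, 15 in the authors' deposited table and 0 to 2 when a library was left out (2 for knockout replicate 2). For genes within 50 kb it became 6 with DESeq2 and 6 in the authors' deposited table, stayed at 0 without any one library, and was 0 in windows of 25 and 100 kb. For infection response genes it became 3 with DESeq2 and 3 in the authors' deposited table. The cause was not tested. With a replicate block the counts were 688 over all genes, 5 C-type lectin, 10 neighbouring and 1 infection response genes. The deviations of same-numbered libraries from their group means correlated at 0.197, -0.025 and 0.288. Wild type replicates 1 and 3 correlated best with the knockout library of their own number. Wild type replicate 2 correlated best with knockout replicate 3 (0.129). With 3 libraries per group, these correlations cannot decide whether the libraries were paired. The alternative list of proteins most like *clec-209* was not run, since no protein sequences were used here. With few reads of Y19D10A.9 in wild type, depth limits the size of its fold difference.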
